A study of Mus musculus with 15 samples.

Results

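The potassium channel genes of purified mouse retinal endothelial cells were compared between 3 mutants of the Norrin pathway and wild type. A gene was taken as a member when the only symbol of its probe set on the array began with Kcn, went on with a letter from a to v and ended in letters or digits, with Kcne3 left out. Kcne3 is not reported here, so rankings hold among the members only. The rule works on symbols alone, but it was chosen with earlier results of these data known. It gave 83 genes, read by 166 probe sets, of 18194 genes in all. They comprised 31 voltage-gated pore subunits, 15 inward rectifiers, 12 two-pore channels, 8 channels activated by calcium or sodium, 14 auxiliary and regulatory subunits and 3 non-coding transcripts named after channel genes. Where a gene had several probe sets, the brightest on average was used for it.

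Cells were taken from adult retinas with beads carrying an antibody to PECAM, an endothelial surface protein, and RNA of each pool of 5 to 10 mice was put on 1 Affymetrix array. There were 3 pools of mice without the receptor Frizzled4 (Fz4-/-, called Fz4 KO here), 3 of mice without the coreceptor Lrp5 (Lrp5-/-, Lrp5 KO), 3 of mice without the secreted ligand Norrin (Norrin-, Norrin KO) and 6 of wild-type mice. All 4 groups were adult, on a background mixed from C57Bl6 and 129 and of mixed gender by the labels, which name neither the alleles nor the age in weeks. The 6 wild-type arrays served as the control of every mutant, so the 3 comparisons with wild type are not independent of each other. Since each array held pooled RNA, the tests see how pools vary rather than how mice vary, and the number of arrays limits the precision.

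Potassium channels let potassium leave or enter the cell along its gradient and so set the membrane potential. In endothelial cells a more negative potential draws calcium in and can spread to the smooth muscle and pericytes of the vessel wall, and the balance of potassium across the blood-retina barrier matters for the neurons behind it. Pore subunits differ in what controls their opening. It is depolarization for the voltage-gated class, and membrane potential, with ATP for some, for the inward rectifiers. For many two-pore channels it is pH and stretch, and for the last class intracellular calcium or sodium. Auxiliary subunits, such as those of the Kcne and Kcnmb groups, change how the pores gate. Norrin signals through Frizzled4 and Lrp5 to beta-catenin and is needed for the retinal vasculature and its barrier.

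The signal is a log2 value, so 1 unit is a 2-fold difference in brightness. Fzd4 was at 4.22 ± 0.30 in Fz4 KO (SD, n = 3) and 12.09 ± 0.20 in wild type (SD, n = 6), and Lrp5 at 4.91 ± 0.45 in Lrp5 KO and 7.69 ± 0.27 in wild type. Ndp, which encodes Norrin, lay between 4.13 and 4.71 in every group and so does not check the Norrin KO labels. The mean of 10 endothelial markers stayed between 11.66 and 12.02 on all arrays, but over the mean of the mutants 3 of the 10 were higher (Kdr, Emcn and Cdh5) and 3 lower (Cldn5, Tek and Flt1). On the 3 Norrin KO arrays the gap between the 3′ and 5′ actin control signals, which widens as RNA is shortened, was 1.05 to 2.92, against 0.558 to 1.04 on the 12 others. Xist was at 4.12 to 4.98 on all Norrin KO arrays and at 11.42 to 11.88 on all Fz4 KO arrays, with both states among the Lrp5 KO and wild-type arrays. Eif2s3y was at 9.77 to 10.32 on the Norrin KO arrays, 9.57 and 9.63 on Fz4 KO 1 and 2, and 3.25 on Fz4 KO 3. Fz4 KO 1 and 2 thus carried signals of both sexes, and pool sex and genotype partly go together. On the second principal component Lrp5 KO 1 lay at 117, with wild type 4 (43.2), Lrp5 KO 3 (39.0) and Fz4 KO 2 (28.2) next and the lowest array at -59.7.

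Most potassium channel genes gave little signal. In 54 of the 83 (65.1%) the group mean lay below the median of the array in all 4 groups, against 35.1% of all genes, and 16 lay above it in all 4. The array medians were 5.88 to 6.04. A probe set's brightness also depends on its probes, so levels are compared here within a probe set and not between genes. In the bulk RNA of a pool, fewer cells of a type and less RNA per cell cannot be told apart.

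Over the mean of the 3 mutants, 9 members were higher than wild type (10.8% of 83) and 0 lower at an adjusted p of 0.05 in limma. Of all genes, 14% were higher and 9.91% lower by the same rule, so the share of members that were higher was not above that of genes at large. At an unadjusted p of 0.05, 14 members were higher and 3 lower, where 19.2% and 15.2% of all genes were. The median difference of the 83 was 0.020 against -0.011 for all genes, and their median absolute difference was 0.200 against 0.226. Of the 83, 74 members did not pass, 69 of which differed by less than 0.5. In 5 members (6.02%) the difference was at least 1 in size, whether called or not, against 7.93% of all genes. The 4 called members higher by at least 1 were Kcnk5, Kcnh1, Kcnj15 and Kcnmb2.

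**Figure D1:**
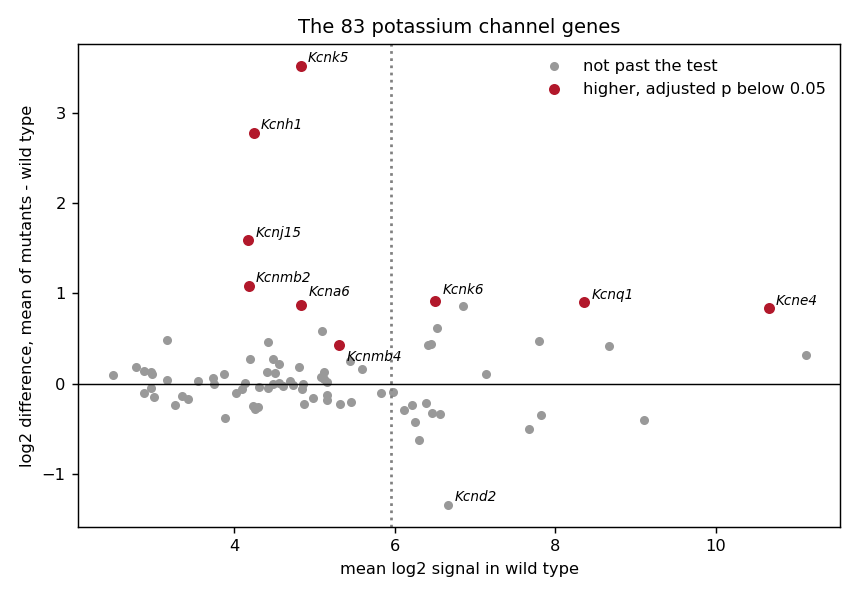
Mean log2 signal in wild type (horizontal axis) against the log2 difference between the mean of the 3 mutants and wild type (vertical axis) for each of the 83 potassium channel genes; red marks the 9 members past an adjusted p of 0.05 and the dotted line the mean of the array medians. Kcnk5 and Kcnh1 stand far above the rest at +3.53 and +2.78, while 69 of the 74 members that did not pass lie within 0.5 of no difference.

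Against wild type, 7 members were higher and 0 lower in Fz4 KO (10.7% and 6.08% of all genes), with 11 and 4 at an unadjusted p of 0.05 (16.8% and 12% of all genes). In Lrp5 KO 5 were higher and 1 lower (5.63% and 7.27% of all genes). In Norrin KO 12 were higher and 4 lower (16.7% and 9.13% of all genes). That last split was 7 higher and 10 lower when each array was centred on its median, which moved the median difference of all genes by -0.285 in Norrin KO, -0.139 in Fz4 KO and -0.116 over the mean of the mutants. With the actin gap as a covariate the Norrin KO counts were 5 and 1, and with Xist and Eif2s3y as covariates 6 and 2. Calls among all genes were not counted under these settings, so the changed counts are not shown to be particular to the members. Kcnk5, Kcnh1, Kcne4 and Kcna6 were called in all 3 mutants, and Kcnj15, Kcnmb2 and Kcnq1 in Fz4 KO and Norrin KO. A further 11 were called in 1 mutant, 9 of them in Norrin KO, and 65 in none. Norrin KO also had the most calls among all genes. How many of all genes were called in 3, 2, 1 or none of the mutants was not counted. The split is therefore not shown to be particular to the members.

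**Figure D2:**
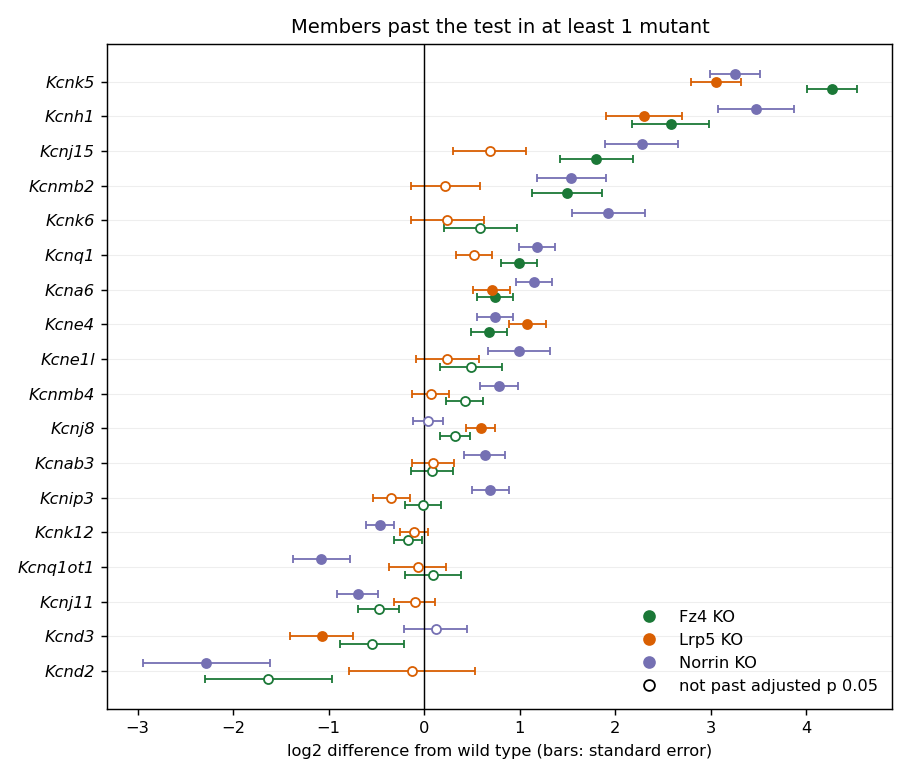
Log2 difference from wild type in Fz4 KO (green), Lrp5 KO (orange) and Norrin KO (purple) for the 18 members called in at least 1 mutant, with bars for the standard error; filled points are past an adjusted p of 0.05. Kcnk5, Kcnh1, Kcna6 and Kcne4 have 3 filled points to the right of 0, and Kcnd2 in Norrin KO is the farthest filled point to the left, at -2.28.

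Among the two-pore channels, Kcnk5 had the largest difference of any member. It encodes a background channel of the TASK group that opens at alkaline pH. On its brighter probe set the Fz4 KO arrays read 9.08, 8.70 and 9.51, the Lrp5 KO arrays 7.74, 8.18 and 7.72, and the Norrin KO arrays 8.32, 8.20 and 7.72. The wild-type arrays ran from 4.17 over a median of 4.94 to 5.42, so all 9 mutant arrays lay above all 6 wild-type arrays by more than 2 units, and wild type lay below the array median while the mutants lay above it. Fz4 KO was higher by 4.27 ± 0.26 (SE, adjusted p = 3.71e-08), Lrp5 KO by 3.05 ± 0.26 (adjusted p = 1.71e-06) and Norrin KO by 3.25 ± 0.26 (adjusted p = 6.49e-07). Fz4 KO exceeded Lrp5 KO by 1.22 ± 0.30, which did not pass (adjusted p = 0.193). Over the mean of the mutants the call held under each of the 13 alternative settings and without any 1 array, with differences of 2.00 to 3.65. Among the alternatives counted here and below, 1 keeps the same fit and sets a 2-fold minimum. A call with a smaller difference fails that one by definition. A second, dimmer Kcnk5 probe set was higher by 0.99 in Fz4 KO (adjusted p = 0.00141), and read -0.053 in Lrp5 KO and 0.46 in Norrin KO, neither of which passed.

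Of the other two-pore channels, Kcnk6, a weakly inwardly rectifying channel of the TWIK group, was at 9.05, 8.27 and 7.95 in Norrin KO against 5.29 to 7.16 in wild type (median 6.64). Every Norrin KO array lay above every wild-type array, while the Fz4 KO arrays (at most 7.22) and Lrp5 KO arrays (6.00, 7.49 and 6.73) overlapped wild type. The difference in Norrin KO was 1.93 ± 0.38 (adjusted p = 0.00206). It did not pass with the actin gap as a covariate (1.55, adjusted p = 0.0739) or with the mean of the macrophage and microglia markers (1.27, adjusted p = 0.0538). The difference over the mean of the mutants, 0.92 (adjusted p = 0.0299), was not past the threshold in 6 of 14 alternatives or without Fz4 KO 3, Lrp5 KO 2, Norrin KO 1, wild type 3 or wild type 4 (adjusted p at most 0.0564 in these 5). The mean of the macrophage and microglia markers was 8.54 to 9.77 in wild type and 9.50 to 10.49 on the mutant arrays, and with it as a covariate the Kcnk6 difference over the mutants was 0.24 (adjusted p = 0.749). Kcnk12, a member of the THIK group that gives little or no current on its own, was lower by 0.46 in Norrin KO (adjusted p = 0.0343), below the array median in all groups, and lost that call in 10 of 14 alternatives and without any 1 of 5 arrays. The remaining 9 two-pore genes did not pass in any mutant in the main fit. Among them Kcnk1, the founding TWIK channel, differed by 0.65 in Fz4 KO, 1.23 in Lrp5 KO and 0.69 in Norrin KO (adjusted p = 0.441, 0.144 and 0.343). Kcnk1 did pass in Lrp5 KO in a fit that blocked arrays matched by their Xist and Eif2s3y signals. It also passed in each mutant with the macrophage mean as a covariate. Kcnk3, an acid-sensitive TASK channel of vascular smooth muscle, and Kcnk2, the stretch-sensitive TREK channel, differed by -0.33 and 0.13 over the mean of the mutants.

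Among the voltage-gated subunits, Kcnh1, the ether-à-go-go channel best known from brain and from dividing cells, was higher in all 3 mutants. The Fz4 KO arrays read 6.79, 6.34 and 7.31, the Lrp5 KO arrays 6.87, 6.35 and 6.41, and the Norrin KO arrays 8.46, 7.42 and 7.25. Wild type ran from 3.40 over a median of 4.06 to 5.37, with no overlap with any mutant array, and lay below the array median where the mutants lay above it. Fz4 KO exceeded wild type by 2.58 ± 0.40 (adjusted p = 0.000371), Lrp5 KO by 2.30 ± 0.40 (adjusted p = 0.00132) and Norrin KO by 3.47 ± 0.40 (adjusted p = 2.19e-05). The Lrp5 KO call did not hold with the rod marker mean as a covariate (1.53, adjusted p = 0.0538). The mean of 8 rod markers was 6.46 to 7.33 in Lrp5 KO and 5.36 to 6.26 in wild type. The second Kcnh1 probe set read 0.50, 0.60 and 0.88 in Fz4 KO, Lrp5 KO and Norrin KO and did not pass.

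Kcnq1, the pore of the slow delayed rectifier of heart and epithelia, read 9.44, 9.15 and 9.47 on the Fz4 KO arrays, 8.90, 9.09 and 8.64 on the Lrp5 KO arrays, and 10.01, 9.41 and 9.21 on the Norrin KO arrays. Wild type ran from 7.98 to 8.70 with a median of 8.33. All arrays of Fz4 KO and Norrin KO lay above wild type and 1 Lrp5 KO array overlapped it. The difference was 1.00 ± 0.19 in Fz4 KO (adjusted p = 0.00176), 1.19 ± 0.19 in Norrin KO (adjusted p = 0.000354) and 0.52 ± 0.19 in Lrp5 KO, which did not pass (adjusted p = 0.0910). In a fit that blocked arrays matched by their Xist and Eif2s3y signals, Kcnq1 did pass in Lrp5 KO. In Norrin KO the Kcnq1 call held in all 15 alternatives. In Fz4 KO it held in 14 of 16, and was lost with the macrophage and microglia marker mean as a covariate (adjusted p = 0.0576) and by the 2-fold minimum. Kcna6, a Shaker channel subunit, read 5.65, 5.56 and 5.53 on the Fz4 KO arrays, 5.72, 5.34 and 5.56 on the Lrp5 KO arrays and 6.11, 5.76 and 6.09 on the Norrin KO arrays. Wild type ran from 4.47 to 5.43 (median 4.69), and 1 Lrp5 KO array overlapped it. Kcna6 was higher by 0.75, 0.71 and 1.15 in Fz4 KO, Lrp5 KO and Norrin KO (adjusted p = 0.0139, 0.0240 and 0.000504). Its other 2 probe sets differed by at most 0.30 in size and did not pass, and the mean of its 3 probe sets passed in no comparison with wild type. The Fz4 KO and Lrp5 KO calls were lost in 8 and 7 of 15 alternatives. The Fz4 KO call also ended without Fz4 KO 1, and the Lrp5 KO call without Lrp5 KO 1, Lrp5 KO 3 or wild type 1.

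Kcnd2 and Kcnd3, pores of fast inactivating A-type currents, were each lower in 1 mutant. Kcnd2 read 3.15, 5.58 and 4.41 in Norrin KO and 5.82, 5.47 and 3.79 in Fz4 KO, below all wild-type arrays (5.93 to 8.28, median 6.40), and 7.86, 5.48 and 6.26 in Lrp5 KO. Its spread within groups was wide. The difference was -2.28 ± 0.66 in Norrin KO (adjusted p = 0.0209) and -1.63 ± 0.66 in Fz4 KO, which did not pass (adjusted p = 0.115). Without Norrin KO 1, the array with the widest actin gap, the Kcnd2 difference in Norrin KO was -1.67 (adjusted p = 0.135), without Norrin KO 3 it was -2.29 (adjusted p = 0.0570), and with the actin gap as a covariate -1.17 (adjusted p = 0.408). In all, that call was lost in 6 of 14 alternatives, among them the mean of the 4 Kcnd2 probe sets. Kcnd3 was at 6.46, 6.71 and 6.63 in Lrp5 KO, below wild type at 7.20 to 8.45 (median 7.36). The difference of -1.07 ± 0.33 (adjusted p = 0.0463) was no longer past the threshold in 7 of 16 alternatives and without any 1 of 9 arrays, among them each of the 3 Lrp5 KO arrays. In a fit that blocked arrays matched by their Xist and Eif2s3y signals, both genes were lower in Fz4 KO as well, Kcnd2 by 1.36 (log2 difference -1.36, adjusted p = 0.0101) and Kcnd3 by 0.88 (-0.88, adjusted p = 0.00271).

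The other voltage-gated members with a known place in vessels or retina did not pass in any mutant. Kcna5, the Shaker channel of vascular smooth muscle, differed by -0.53, -0.54 and -0.16 in Fz4 KO, Lrp5 KO and Norrin KO, and Kcnq5, a further channel of vascular muscle, by -0.31, -0.15 and -0.27. Kcnv2, the silent subunit of photoreceptors, was at 2.94 to 3.16 in all 4 groups. Kcnc1 and Kcnc2, fast channels of retinal neurons, differed by 0.22 and -0.053 over the mean of the mutants. In Norrin KO Kcnc1 read 0.58 (adjusted p = 0.0754), while a dimmer Kcnc1 probe set tested on its own was lower there. Kcnq1ot1, the long non-coding RNA transcribed opposite to Kcnq1 in the imprinted cluster, was lower in Norrin KO by 1 of its 6 probe sets as chosen for the gene: 5.87, 7.22 and 7.15 against 7.53 to 8.31 in wild type, a difference of -1.08 ± 0.30 (adjusted p = 0.0159). When each probe set was tested on its own, 3 of the 6 were lower in Norrin KO, and without Norrin KO 1 the difference was -0.64 (adjusted p = 0.111). The Kcnq1ot1 call was lost in 5 of 15 alternatives, among them those with the actin gap or with Xist and Eif2s3y as covariates.

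Among the inward rectifiers, Kcnj15, which is known from kidney and can pair with other Kir subunits, was at 5.84, 6.00 and 6.08 in Fz4 KO and at 6.21, 6.20 and 6.93 in Norrin KO. Wild type ran from 2.98 to 4.99 (median 4.36) and Lrp5 KO was at 4.26, 5.40 and 4.92. The arrays of Fz4 KO and Norrin KO lay above all wild-type arrays, and those of Lrp5 KO overlapped them. The difference was 1.80 ± 0.38 in Fz4 KO (adjusted p = 0.00412), 2.28 ± 0.38 in Norrin KO (adjusted p = 0.000570) and 0.69 ± 0.38 in Lrp5 KO (adjusted p = 0.300). A second Kcnj15 probe set was higher as well, by 1.21 in Fz4 KO and 1.55 in Norrin KO, and the remaining one read between -0.12 and 0.09. Over the mean of the mutants the call held in all 13 alternatives, at 0.89 to 2.10. The Fz4 KO call did not hold with the mean of the pericyte and smooth muscle markers as a covariate (adjusted p = 0.109).

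Kcnj8, the pore of the vascular ATP-sensitive channel and a pericyte gene, was at 11.49, 11.89 and 11.76 in Lrp5 KO, above wild type at 10.79 to 11.37 (median 11.16). The difference there was 0.59 ± 0.15 (adjusted p = 0.0201), while Fz4 KO differed by 0.32 (adjusted p = 0.185) and Norrin KO by 0.039 (adjusted p = 0.877). Its partner Abcc9, the sulphonylurea receptor of the same channel, was higher in all 3 mutants, by 0.72, 0.87 and 0.54 in Fz4 KO, Lrp5 KO and Norrin KO (adjusted p = 0.00395, 0.00125 and 0.0173). The mean of 11 pericyte and smooth muscle markers was 10.24 to 10.55 in wild type, 10.65 to 10.85 in Fz4 KO, 10.28 to 10.85 in Lrp5 KO and 10.61 to 10.76 in Norrin KO, and 3 of the 11 were higher and 1 lower over the mean of the mutants. With that mean as a covariate the Kcnj8 difference in Lrp5 KO was 0.47 (adjusted p = 0.0638). It was also not past the threshold without Lrp5 KO 2 (0.51, adjusted p = 0.0900) or without Lrp5 KO 3 (0.57, adjusted p = 0.0793), and in all was lost in 7 of 16 alternatives.

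Kcnj11, the pore of the ATP-sensitive channel of pancreas and neurons, was lower by 0.70 ± 0.21 in Norrin KO (log2 difference -0.70, adjusted p = 0.0270), at 5.95, 5.26 and 5.44 against 5.94 to 6.71 in wild type, with 1 Norrin KO array overlapping. Its second probe set read -0.026 in Norrin KO and did not pass, and the call ended without Norrin KO 2 or Norrin KO 3. The other 12 inward rectifiers passed in no mutant in the main fit. Kcnj2, the strong inward rectifier of capillary endothelium, differed by 0.52, 0.13 and 0.15 in Fz4 KO, Lrp5 KO and Norrin KO (adjusted p = 0.475, 0.919 and 0.834). Kcnj10, the glial channel that clears potassium from the retina, differed by 0.57, 0.55 and 0.72 (adjusted p = 0.345, 0.419 and 0.173). With arrays matched by Xist and Eif2s3y as a block, Kcnj10 was called higher in Lrp5 KO. Kcnj14 was nearest to the threshold in Norrin KO, at -0.64 (adjusted p = 0.0539).

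None of the 8 channels activated by calcium or sodium passed in any mutant in limma. At an unadjusted p of 0.05, 1 was higher in Fz4 KO, 0 in Lrp5 KO and 2 in Norrin KO, and none was lower. By that rule 16.8%, 10.7% and 23.1% of all genes were higher in these mutants, and 12%, 14.1% and 14.7% lower. Kcnn3 and Kcnn4, the small- and intermediate-conductance channels that hyperpolarize arterial endothelium, differed by -0.065 and 0.47 over the mean of the mutants. Kcnn4 read 0.92 ± 0.38 in Fz4 KO (adjusted p = 0.125), and its dimmer probe set was higher there by 0.96 when each probe set was tested on its own (adjusted p = 0.0214). Kcnma1, the large-conductance BK pore of smooth muscle, and Kcnmb1, its smooth muscle auxiliary subunit, differed by 0.74 and 0.78 in Norrin KO (adjusted p = 0.0731 and 0.160).

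**Figure D3:**
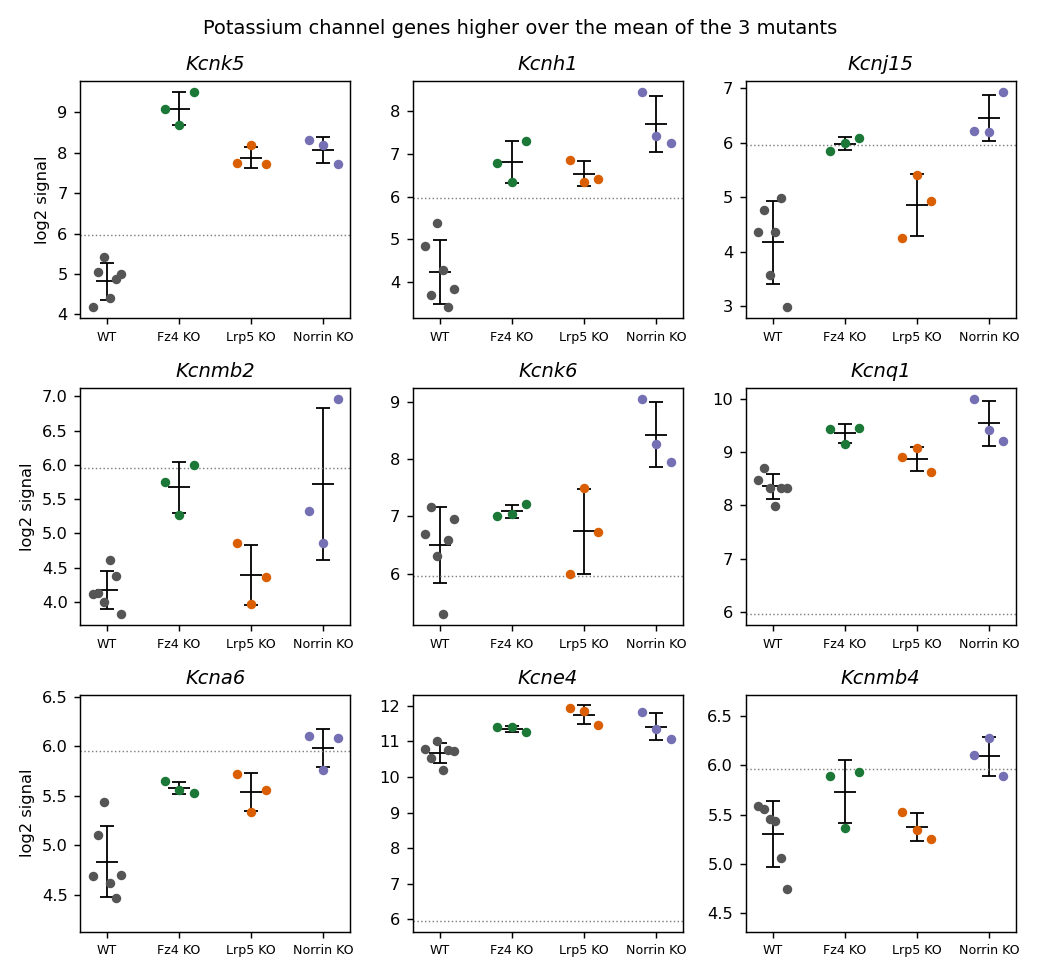
Log2 signal on each array (points) for the 9 members higher over the mean of the 3 mutants, with the mean and SD of each group; the dotted line is the mean of the array medians. In the Kcnk5, Kcnh1 and Kcne4 panels all 9 mutant arrays lie above all 6 wild-type arrays, and in the Kcnj15 and Kcnmb2 panels the Lrp5 KO arrays overlap wild type.

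Of the 14 auxiliary and regulatory subunits, 2 were higher in Fz4 KO, 1 in Lrp5 KO (Kcne4) and 6 in Norrin KO. Of all genes, 10.7%, 5.63% and 16.7% were higher in Fz4 KO, Lrp5 KO and Norrin KO, and 6.08%, 7.27% and 9.13% lower. In these subunits 0 were lower in any mutant, also at an unadjusted p of 0.05, where 12%, 14.1% and 14.7% of all genes were lower. Kcne4, a single-pass subunit that suppresses Kcnq1 and some Shaker channels when they are expressed together, was higher in all 3 mutants. The Fz4 KO arrays read 11.39, 11.39 and 11.25, the Lrp5 KO arrays 11.93, 11.85 and 11.45 and the Norrin KO arrays 11.82, 11.33 and 11.06, against 10.18 to 11.00 in wild type (median 10.73). No mutant array overlapped wild type, though the nearest, Norrin KO 3, was above wild type 3 by less than 0.1. Fz4 KO was higher by 0.68 ± 0.19 (adjusted p = 0.0237), Lrp5 KO by 1.08 ± 0.19 (adjusted p = 0.00155) and Norrin KO by 0.74 ± 0.19 (adjusted p = 0.0109). The Fz4 KO call was lost in 8 of 16 alternatives and without any 1 of the 3 Fz4 KO arrays, and the Norrin KO call in 8 of 15 alternatives and without Norrin KO 1. The Lrp5 KO call was lost with the rod marker mean as a covariate (0.73, adjusted p = 0.0617), and over the mean of the mutants the Kcne4 call held in 13 of 14 alternatives, the exception being the 2-fold minimum.

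Kcnmb2, a BK auxiliary subunit that inactivates the channel, was at 5.75, 5.27 and 5.99 in Fz4 KO and 5.32, 4.86 and 6.97 in Norrin KO, above wild type at 3.82 to 4.61 (median 4.12). Lrp5 KO, at 4.85, 3.97 and 4.36, overlapped wild type. The difference was 1.495 ± 0.362 in Fz4 KO (adjusted p = 0.0101), 1.54 ± 0.36 in Norrin KO (adjusted p = 0.00616) and 0.22 ± 0.36 in Lrp5 KO (adjusted p = 0.805). The Fz4 KO call did not hold without Fz4 KO 3 (adjusted p = 0.0653) or with the pericyte marker mean as a covariate (adjusted p = 0.0606), which also ended the call over the mean of the mutants (adjusted p = 0.0561). The Norrin KO call did not hold with the actin gap (adjusted p = 0.0711) or with Xist and Eif2s3y as covariates (adjusted p = 0.102). Kcnmb4, the BK auxiliary subunit of neurons, was higher in Norrin KO by 0.78 ± 0.20 (adjusted p = 0.00887). That difference no longer passed in 5 of 14 alternatives (adjusted p up to 0.0902). Its call over the mean of the mutants, 0.43 (adjusted p = 0.0464), did not hold in 10 of 13 alternatives or without any 1 of 11 arrays.

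The 3 further auxiliary genes called in Norrin KO were dim and near the threshold. Kcne1l, of the Kcne group, was higher by 1.00 ± 0.33 (adjusted p = 0.0368), Kcnip3, a calcium sensor that binds the Kcnd pores and also acts in the nucleus, by 0.69 ± 0.19 (adjusted p = 0.0161), and Kcnab3, a cytoplasmic beta subunit, by 0.63 ± 0.22 (adjusted p = 0.0451). They lost the call in 8, 9 and 12 of 14 alternatives. Left out 1 at a time, 6 arrays ended the Kcne1l call and 12 the Kcnab3 call, and for Kcnip3 these were Norrin KO 1 and Norrin KO 2.

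Counted by arrays that did not overlap, 8 members lay wholly above wild type in Fz4 KO and 1 below (13.9% and 9.36% of all genes), 5 and 1 in Lrp5 KO (7.78% and 8.95%), and 11 and 5 in Norrin KO (15.8% and 9.55%). In 3 members all 9 mutant arrays lay above all wild-type arrays, namely Kcnk5, Kcnh1 and Kcne4 (4.76% of all genes did so), and in 0 members below them (3.53% of all genes). The 250 bases before the start of these 3 genes (RefSeq, GRCm38.p6) are shown, so the genes were picked by this outcome. The Norrin pathway acts through beta-catenin and TCF/LEF factors, and a link of these differences to such factors was not tested. Capitals mark the letters CTTTGA, the core of the motif those factors bind, searched on both strands; the windows are chr14:20181783-20182032 (minus strand) for Kcnk5, chr1:192190527-192190776 (plus strand) for Kcnh1 and chr1:78816661-78816910 (plus strand) for Kcne4.
Kcnk5: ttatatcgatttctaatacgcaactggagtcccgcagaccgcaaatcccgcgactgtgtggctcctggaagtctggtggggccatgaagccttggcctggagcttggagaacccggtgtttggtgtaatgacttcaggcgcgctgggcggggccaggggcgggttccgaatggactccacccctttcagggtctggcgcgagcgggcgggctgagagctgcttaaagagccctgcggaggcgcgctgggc
Kcnh1: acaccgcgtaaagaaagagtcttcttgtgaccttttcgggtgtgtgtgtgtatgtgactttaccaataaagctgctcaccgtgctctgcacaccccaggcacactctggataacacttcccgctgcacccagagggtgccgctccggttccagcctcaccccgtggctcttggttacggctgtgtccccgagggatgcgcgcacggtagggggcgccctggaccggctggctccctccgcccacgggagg
Kcne4: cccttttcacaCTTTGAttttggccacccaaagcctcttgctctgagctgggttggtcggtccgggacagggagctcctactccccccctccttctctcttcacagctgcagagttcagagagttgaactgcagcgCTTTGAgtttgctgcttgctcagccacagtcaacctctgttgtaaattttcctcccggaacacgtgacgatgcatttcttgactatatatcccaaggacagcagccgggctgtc
Kcne4 held the letters at 239 and 114 bases before its start, and these windows of Kcnk5 and Kcnh1 held none. Of all 32851 gene windows of this length, 13.8% held a match. Counted by gene instead of by window, 7 of the 63 members with a window held a match (11.1%), so the shares are not the same measure. Of the 14 members with a window that were called in at least 1 mutant, 1 held a match, Kcne4. A match describes the letters and not a bound site, and binding was not measured in these data.

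The mutants differed from each other in few members. Fz4 KO and Lrp5 KO differed in 0 members either way (0.159% of all genes higher in Fz4 KO and 0.066% lower), as did Fz4 KO and Norrin KO (0.896% and 1.43%). At an unadjusted p of 0.05 in limma these were 5 higher and 1 lower for Fz4 KO against Lrp5 KO (5.78% and 3.39% of all genes). For Fz4 KO against Norrin KO they were 4 higher and 6 lower (6.84% and 11.2%). Norrin KO exceeded Lrp5 KO in 4 members and fell below it in 0 (9.5% and 2.43% of all genes), with 13 and 9 at an unadjusted p of 0.05 (20.7% and 8.54% of all genes).

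The 4 were Kcnk6, by 1.69 ± 0.44 (adjusted p = 0.0270), Kcnj15, by 1.59 ± 0.44 (adjusted p = 0.0333), Kcnt2, by 1.06 ± 0.30 (adjusted p = 0.0362), and Kcnip3, by 1.04 ± 0.22 (adjusted p = 0.0112). Kcnt2 encodes a sodium-activated channel and was not called against wild type in either mutant (0.67 in Norrin KO and -0.40 in Lrp5 KO, adjusted p = 0.0755 and 0.404). Its Norrin KO arrays read 8.24, 7.94 and 7.22, its Lrp5 KO arrays 6.31, 6.95 and 6.94 and its wild-type arrays 6.67 to 7.45. None of the 4 calls held without Lrp5 KO 1, when only these groups were fitted, or with the actin gap as a covariate. Centring the arrays, which moved the median of all genes by -0.360 in this comparison, left 2 higher and 8 lower. Calls among all genes were not counted after centring. The astrocyte markers Gfap and S100b were both higher in Norrin KO than in Lrp5 KO, by 2.73 and 2.78 (adjusted p = 0.00174 and 0.000715), and their part in the result was not tested.

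**Figure D4:**
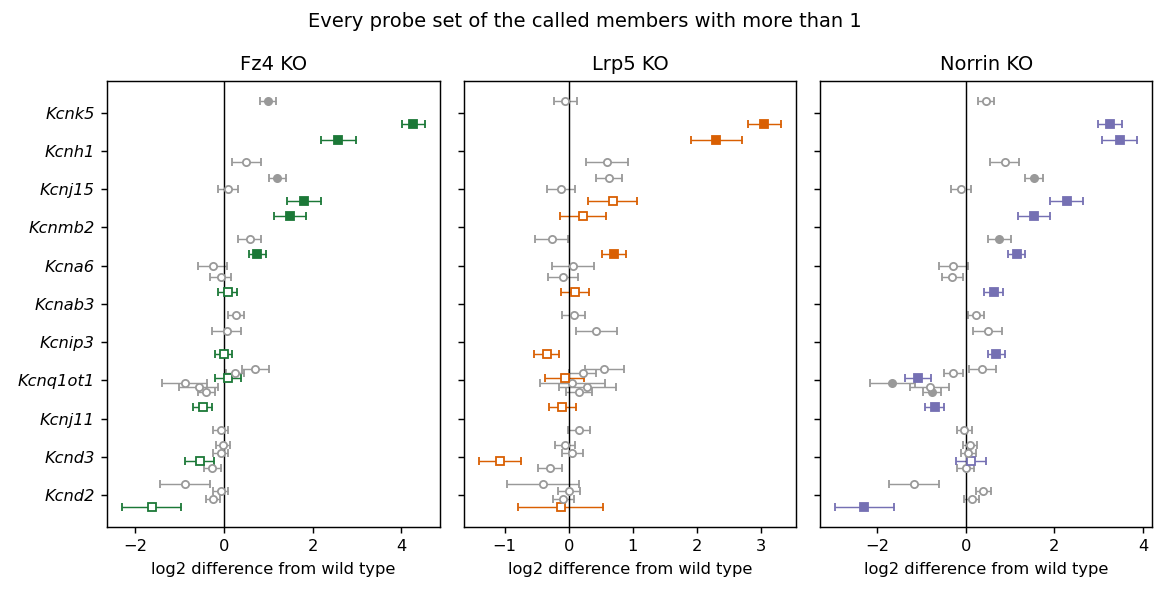
Log2 difference from wild type, with the standard error, for every probe set of the called members that have more than 1, in Fz4 KO (left), Lrp5 KO (middle) and Norrin KO (right). Coloured squares are the probe sets that stand for the gene, grey circles the others, and filled symbols are past an adjusted p of 0.05 with each probe set tested on its own; the second probe sets of Kcnh1 and Kcna6 are open in all 3 panels, and those of Kcnj15 and Kcnmb2 are filled in Norrin KO.

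Of the 83 members, 46 had more than 1 probe set, and in no comparison did 2 probe sets of a gene pass in opposite directions. Counted as probe sets, the higher ones were 10 in Fz4 KO, 5 for Lrp5 KO and 17 for Norrin KO (9.6%, 4.5% and 14.6% of all probe sets), and 0, 0 and 7 were lower (4.84%, 5.16% and 8.74%). On this count Kcnd3 in Lrp5 KO did not pass (adjusted p = 0.0557). Dimmer probe sets of Kcnip4, Kcnk13 and Kcnq3 were higher in Norrin KO, by 1.33, 0.50 and 0.43, and a dimmer probe set of Kcnc1 was lower there by 0.67 (log2 difference -0.67). The probe sets that stood for these 4 genes did not pass. These 4 genes are named because they were called in Norrin KO only when probe sets were counted. The rest of the difference between the 2 counts there came from further probe sets of Kcnj15, Kcnmb2 and Kcnq1ot1. In Fz4 KO the difference came from probe sets of Kcnj15, Kcnk5 and Kcnn4.

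Other genes that move potassium, listed by their role and not members, were tested in the same fit. Of 38 listed, 31 were measured, and 5 were higher and 2 lower over the mean of the mutants, where 14% and 9.91% of all genes were. Fxyd2, the small regulatory subunit of the sodium-potassium pump, was higher by 2.11, 1.79 and 2.26 in Fz4 KO, Lrp5 KO and Norrin KO (adjusted p = 1.72e-05, 0.000122 and 7.94e-06). Of the pump's beta subunits, Atp1b1 was lower over the mean of the mutants by 0.85 (log2 difference -0.85, adjusted p = 0.00575) and Atp1b2 higher by 0.46 (adjusted p = 0.00576). Slc12a2, which carries sodium, potassium and chloride into the cell, was higher by 0.75, 0.70 and 0.67 (adjusted p = 0.000437, 0.00115 and 0.000878). Slc12a4, which carries potassium and chloride out, was higher by 1.03 in Fz4 KO and 1.31 in Norrin KO (adjusted p = 0.00461 and 0.000587) and by 0.63 in Lrp5 KO without passing (adjusted p = 0.0825). Hcn2, a cation channel opened by hyperpolarization, was lower over the mean of the mutants (-0.43, adjusted p = 0.0284), and Piezo1, the stretch-activated cation channel of endothelium, was lower in Norrin KO (-0.58, adjusted p = 0.00359).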

How the data were processed

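The values were log2 signals that the authors deposited, made with RMA (background correction, normalization between arrays, 1 value per probe set) per the submitters' processing notes. Its version, and whether all 15 arrays were normalized together, are not stated in the labels. Of 45101 probe sets, 34958 carried 1 gene symbol in the platform annotation and were kept, 932 carried several and 9211 none. All 15 arrays were fitted in 4 group means with limma 3.58.1 (lmFit, contrasts.fit, eBayes) in R 4.3.3, and p-values were adjusted by Benjamini and Hochberg over 18194 genes, with calls at 0.05. The fit was also run on simulated data with noise drawn independently for each gene and array. Correlated deviations between arrays were not simulated, so that run cannot speak to them.

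Named with values were members past the threshold over the mean of the mutants by at least 1, the 10 largest called in each mutant, all called between mutants, and a fixed set of vascular, glial and retinal channel genes. The other called members were named as well, after their values were seen. The members, gene lists and tests were chosen with earlier results of these data known. The replicate numbers did not meet the criterion for pairing in any pair of groups (a correlation of deviations over 0.1 for every number), so no pairing was used in the main fit. Fz4 KO 1 to 3 resembled wild type 1 to 3, and Lrp5 KO 1 to 3 wild type 4 to 6, in their Xist and Eif2s3y signals, and a fit with these matched arrays as a block was added after seeing the data. The Lrp5 KO matches did meet the criterion (0.661, 0.335 and 0.257), so the main fit may ignore a pairing there. The labels state no such matching.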

Additional observations from a re-analysis of the deposited data

Results flagged for a closer look

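In the wild-type group, 11 of the 83 members had 1 array far from the other 5, by Dixon's criterion at the 95% level, which chance alone meets in about 1 group in 20. Wild type 4 was the highest array for Kcnc2 (4.504), Kcnip2 (5.473), Kcnj16 (3.178), Kcnj4 (5.135), Kcnj6 (5.268) and Kcns2 (4.888). Wild type 2 was the highest for Kcnj3 (4.957), wild type 6 for Kcnj5 (3.410) and wild type 5 for Kcnk12 (4.563). Wild type 5 was the lowest for Kcna5, at 8.008 with the next array at 9.129, and wild type 3 the lowest for Kcnmb4os1, at 2.782 with the next at 4.339. Of these 11 members, Kcnk12 was the 1 called against wild type, lower in Norrin KO.

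In 4 members the difference between 2 mutants was itself past the threshold. Norrin KO was above Lrp5 KO by 1.04 for Kcnip3, 1.59 for Kcnj15, 1.69 for Kcnk6 and 1.06 for Kcnt2.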

How the results depend on the processing

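Under the settings run, no called member turned to a call in the opposite direction. Counts below are of members higher, then lower, and those not given were within 1.5 times the counts of the report. Calls among all genes were not counted here, except for single probe sets in each mutant against wild type. A changed count is therefore not shown to be particular to the members. Most members are dim and were left out when only genes above the median gene were fitted. Of those kept, 2 were higher in Fz4 KO, 3 in Lrp5 KO, 3 in Norrin KO and 4 over the mean of the mutants, with 1 lower in Norrin KO. With a 2-fold minimum these were 4, 3, 7 and 4, with 2 lower in Norrin KO. That setting kept the main fit, so calls with a smaller difference fail it by definition. Arrays centred on the median gave 7 and 10 in Norrin KO, 2 lower over the mean, 1 higher in Fz4 KO against Norrin KO, and 2 and 8 in Norrin KO against Lrp5 KO. Quantile normalization again gave 1 lower over the mean and 2 lower in Norrin KO against Lrp5 KO, and eBayes with trend and robust gave 1 and 1. With the mean of all probe sets, 0 were lower in Lrp5 KO, 2 lower in Norrin KO, 1 higher in Fz4 KO against Lrp5 KO and 1 lower in Norrin KO against Lrp5 KO. Counted as single probe sets, 0 were lower in Lrp5 KO, 7 lower in Norrin KO, 1 higher in Fz4 KO against Norrin KO and 2 lower in Norrin KO against Lrp5 KO. Fitting only the groups compared left 0 lower in Lrp5 KO and 0 higher in Norrin KO against Lrp5 KO. Among genes above the median gene, 1 was higher in Fz4 KO against Norrin KO and 2 lower in Norrin KO against Lrp5 KO.

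With the rod marker mean as a covariate, 1 was higher in Lrp5 KO, 2 lower in Norrin KO, 1 lower over the mean, and 7 higher in Norrin KO against Lrp5 KO. With the pericyte mean, 3 were higher and 1 lower in Fz4 KO, 3 lower in Lrp5 KO, 1 lower in Norrin KO, 1 lower over the mean, 1 lower in Fz4 KO against Norrin KO and 2 lower in Norrin KO against Lrp5 KO. With the actin gap, 0 were lower in Lrp5 KO, 5 higher and 1 lower in Norrin KO, 1 lower over the mean and 0 higher in Norrin KO against Lrp5 KO. Without Lrp5 KO 1, Lrp5 KO 3 and wild type 4, 2 were higher and 0 lower in Lrp5 KO, 1 lower over the mean, 1 lower in Fz4 KO against Norrin KO and 0 higher in Norrin KO against Lrp5 KO; this leaves 1 Lrp5 KO array, which is assumed to vary like the other groups, so its Lrp5 KO counts say little. Added after seeing the data, Xist and Eif2s3y as covariates gave 0 lower in Lrp5 KO, 6 higher and 2 lower in Norrin KO and 1 lower over the mean, and the macrophage mean gave 0 lower in Lrp5 KO and 0 in Norrin KO. The cause of these changes was not tested.

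Leaving out 1 array at a time gave 5 to 8 higher and 0 to 1 lower in Fz4 KO, 3 to 6 and 0 to 2 in Lrp5 KO, 10 to 14 and 1 to 6 in Norrin KO, 7 to 11 and 0 to 2 over the mean, 0 and 0 for Fz4 KO against either other mutant, and 0 to 6 and 0 to 4 for Norrin KO against Lrp5 KO. The 1 lower in Norrin KO was without Norrin KO 1, the 0 higher against Lrp5 KO without Lrp5 KO 1 and the 4 lower without Lrp5 KO 2. With the replicate number as a block, 3 were higher and 0 lower in Lrp5 KO and 7 and 0 in Norrin KO. Deviations of arrays sharing a number correlated at -0.238 to 0.381, and in no pair of groups were all 3 over 0.1, though Fz4 KO and wild type gave 0.258, 0.0601 and 0.381. Arrays matched by Xist and Eif2s3y (Fz4 KO 1 to 3 with wild type 1 to 3, Lrp5 KO 1 to 3 with wild type 4 to 6) gave those values and 0.661, 0.335 and 0.257. The labels state no such matching. With these matched arrays as a block and without Norrin KO, 5 were higher and 3 lower in Fz4 KO, and 8 and 2 in Lrp5 KO. There Kcnk1 (1.55, adjusted p = 0.0161), Kcnj10 (0.89, adjusted p = 0.0218) and Kcnq1 (0.66, adjusted p = 0.0444) were higher in Lrp5 KO and Kcnt2 lower (-0.45, adjusted p = 0.0272), while Kcnj8 in Lrp5 KO (adjusted p = 0.0628) and Kcna6 and Kcne4 in Fz4 KO (adjusted p = 0.0881 and 0.109) did not pass. With the macrophage mean, Kcnk1 was higher in each mutant, by 1.94, 2.11 and 1.72 in Fz4 KO, Lrp5 KO and Norrin KO (adjusted p = 0.0474, 0.0115 and 0.0310). With 3 arrays per mutant and most members dim, differences of single members that did not pass are not shown to be absent.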
